A study of Sus scrofa with 4 samples.

Results

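Nuclear genes for the mitochondrial respiratory chain and ATP synthase were followed through RNA sequencing of the longissimus dorsi, the long muscle of the back, in 4 pig breeds. Members were the nuclear rows of the deposited table whose names carry the prefixes of the subunits of complexes I to V, or cytochrome c, with a mean of at least 1 FPKM, a count of fragments scaled to transcript length and library size. By name 68 rows qualified, none fell under that mean, and the lower of the 2 ATP5J entries was dropped, which left 67 genes of the 18208 in the table. CYC1, a haem-carrying subunit of complex III, was not analysed here. Of the 67, 57 encode subunits: 27 of complex I, 3 of complex II, 5 of complex III, 11 of complex IV, 10 of complex V, and cytochrome c itself. The other 10 share a prefix but encode assembly or related factors. The lowest member means were 1.54 FPKM for NDUFAF2 and 3.92 FPKM for NDUFAF6, so the minimum decided no membership.

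The indigenous Chinese type was represented by a Diannan Small Ear pig library (DSP) and a Tibetan pig library (TP), and the introduced type by a Landrace library (LL) and a Yorkshire library (YY). The study set the types side by side to look for genes tied to growth and fat deposition. Each breed had 1 library of muscle RNA, no treatment was labelled, and the sources used here give neither the number of animals nor their age, sex or feeding. Each type therefore had 2 libraries, its spread is that between 2 breeds, and a breed difference has no replicate check.

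The respiratory chain passes electrons from NADH through complex I, or from succinate through complex II, to ubiquinone, and then through complex III, cytochrome c and complex IV to oxygen. Complexes I, III and IV pump protons as they do so, and complex V, the ATP synthase, uses the proton gradient to make ATP. Most subunits are encoded in the nucleus and a small remainder in mitochondrial DNA, so each complex except complex II needs both genomes. In muscle, slow and other oxidative fibres are rich in mitochondria, while fast glycolytic fibres hold fewer.

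The deposited FPKM summed to between 880279 and 1450764 per library, and sequencing depth is unknown. Nuclear loci shorter than 300 bp took 20.6% of the sum in DSP and 17.7% in LL, against 1.39% in TP and 5.55% in YY. Mitochondrially encoded genes took between 24.02% and 33.2%. Every FPKM is scaled to the size of its library, so other abundant genes can bear on the level of every member. These fractions are of summed FPKM, not of fragments, so how far they do so is unknown. Values that do not depend on library scaling (shares and ratios within a library) are therefore given beside the levels. Of 7 listed fibre markers 4 were found, and all were abundant: ACTA1, the skeletal muscle actin, had 39517 FPKM in DSP and 47397 in TP, against 16778 in LL and 50812 in YY. Of 4 heart markers 3 were found: TNNI3 and TNNT2 did not exceed 3.10 FPKM in any library, and MYH6, a near-identical neighbour of the slow fibre myosin MYH7, had 600.3 FPKM in DSP and 676 in TP, against 726 in LL and 1268 in YY.

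The respiratory chain genes were lowest in Landrace. LL held the lowest of the 4 values for 60 of the 67 members, where 26.6% of all 11652 genes tested had their lowest value in LL. YY held the highest value for 50 members (32.8% of all genes), DSP for 10 (30.0%), TP for 7 (16.2%) and LL for 0 (21.1%). The median subunit had 160 FPKM in DSP and 216 in TP, against 77.0 in LL and 239.6 in YY. The full order YY, TP, DSP, LL from high to low occurred in 44 members, against 12.2% of all genes. Summed, the 57 subunits had 12603 FPKM in DSP and 17096 in TP, against 7328 in LL and 19911 in YY.

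Part of this order depended on what the libraries were scaled to. As a percentage of the FPKM at nuclear loci of at least 300 bp, the subunits took 1.57% in DSP and 2.97% in TP, against 1.29% in LL and 2.35% in YY. On that scale TP, not YY, was the highest, while LL stayed the lowest. Gene by gene, LL was then lowest for 47 members (12.0% of all genes on that scale), TP highest for 49 (30.0%) and YY highest for 12 (16.0%). Set against the sum of the 4 fibre markers (ACTA1, the creatine kinase CKM, the fast troponin TNNC2 and the filament protein DES), the subunit sum was 20.2% in DSP and 22.2% in TP, against 26.1% in LL and 19.8% in YY. LL was thus the highest of the 4 against this sum, of which ACTA1 was the largest part. The ranking did not hold for each marker: against TNNC2 alone or DES alone, TP was the highest. DES had 2150 FPKM in DSP and 2129 in TP, against 1829 in LL and 6462 in YY. All 4 fibre markers were themselves lowest in LL and highest in YY. In bulk muscle, fewer fibres and less of this RNA per fibre cannot be told apart.

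**Figure D1:**
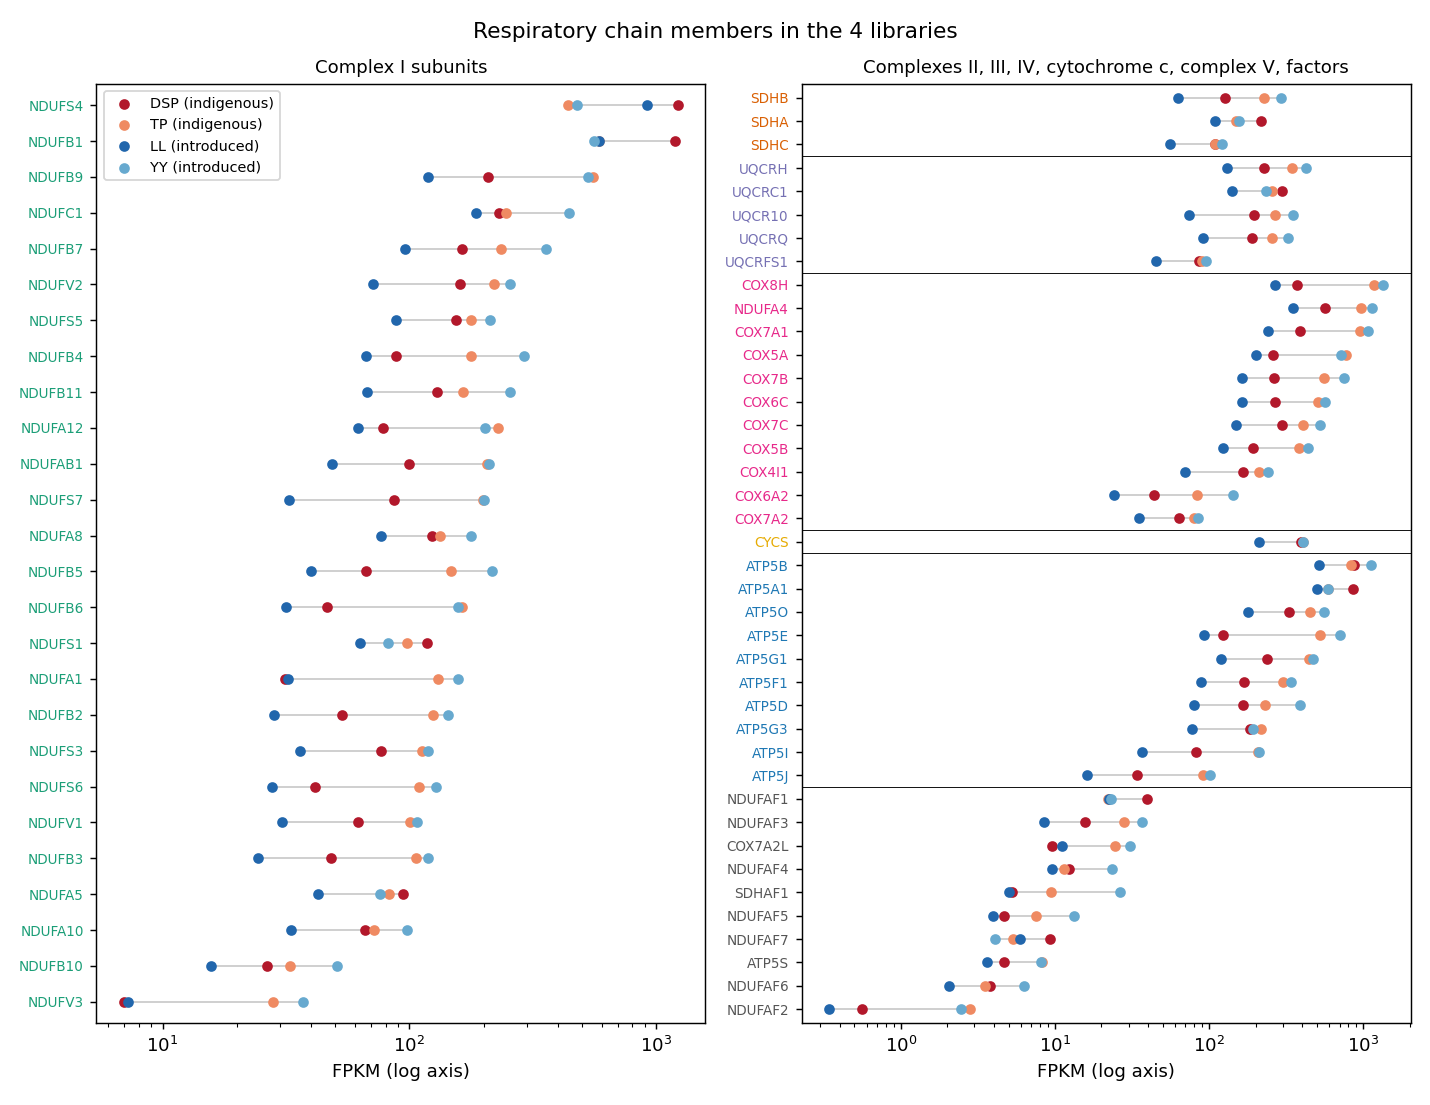
FPKM (log axis) of 66 of the 67 members, one row per gene, with a point for each of the 4 libraries and gene names coloured by complex. LL points lie furthest left in 59 of 66 rows and YY points furthest right in 50.

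The comparison the study was built on set indigenous against introduced pigs. No member's difference between the types passed the test used, whose standard error draws on the spread of all genes besides the member's own. A member's own breed gaps could be smaller than its type difference. NDUFS1 had a type difference of 0.57, with 0.26 for DSP minus TP and -0.38 for LL minus YY. On log2(FPKM + 1), limma passed 0 of the 67 members in either direction at an adjusted p of 0.05, as it passed 0.0% of the 11652 genes higher and 0.0% lower. At an unadjusted p under 0.05 it also found 0 of the 67, against 0.549% of all genes higher and 0.566% lower among the indigenous pigs. The smallest adjusted p among the members was 1.

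The members' median difference, indigenous minus introduced, was 0.28 log2, against -0.02 for all genes tested, and 57 of 67 members lay above 0, where 47.6% of all genes did. The pooled SD of the library medians within a type was 0.86, larger than that difference. The sign rested on single libraries: the median was -0.61 without LL and -0.05 without TP, and it was 0.55 without DSP and 1.11 without YY. Of 31 members named by rule, 23 had a type difference that changed sign when 1 library was left out. The share of all genes that did so is not given here, and some of the 31 were chosen by their type difference. By complex the medians were 0.27 for complex I, 0.40 for complex II, 0.40 for complex III, 0.24 for complex IV and 0.38 for complex V, each smaller than its pooled SD, which ran from 0.66 to 1.23. The 10 factors had a median of 0.07.

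For 4 members both indigenous libraries lay above both introduced ones (9.47% of all genes), and for 0 both lay below (9.17%). With libraries scaled to nuclear loci of at least 300 bp the first count was 8 (6.96% of all genes). NDUFS1, the largest iron-sulfur core subunit of complex I, had 118 FPKM in DSP and 98.0 in TP, against 62.8 in LL and 82.2 in YY. Its difference was 0.57 log2 (SE 0.67, limma adjusted p = 1). NDUFA5, an accessory subunit of the matrix arm of complex I, had 93.8 FPKM in DSP and 82.4 in TP, against 42.8 in LL and 75.8 in YY, a difference of 0.62 (SE 0.67). For both genes the introduced type's lower mean came mainly from LL, with YY nearer to TP. UQCRC1, a core protein of complex III, had 294 FPKM in DSP and 256 in TP, against 140 in LL and 232 in YY, a difference of 0.61 (SE 0.77). NDUFB1, a small subunit of the membrane arm of complex I, is described with complex I.

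**Figure D2:**
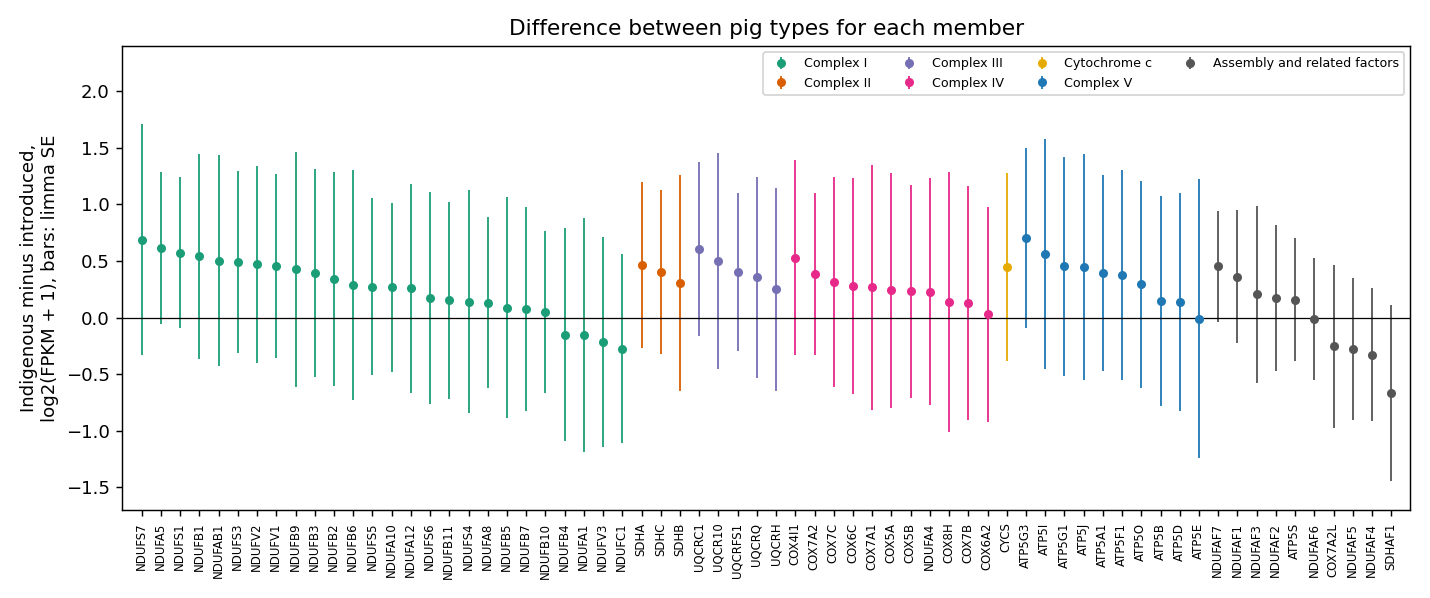
Difference indigenous minus introduced on log2(FPKM + 1) for 66 of the 67 members, grouped by complex, with bars for the limma standard error. Points run from -0.67 (SDHAF1) to 0.70 (ATP5G3), 56 lie above 0, and none passed the test.

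The authors' deposited table calls 5 of the 67 members at a false discovery rate under 0.05, where it calls 1.69% of the genes tested as higher and 3.5% as lower in the indigenous type. In the authors' deposited table NDUFB1 has a ratio of 1.55 (false discovery rate 2.96e-13), ATP5A1 of 1.33 (9.81e-05), UQCRC1 of 1.48 (0.00238) and ATP5G3 of 1.48 (0.0226), all higher in the indigenous type. NDUFC1, a membrane arm subunit of complex I, is lower in the authors' deposited table, with a ratio of 0.756 (0.0185). For 67 of 67 members the deposited p lay within 1% of the result of Fisher's exact test when each type's pooled FPKM, rounded up, stood in for a count, a test that does not read the spread between breeds. Limma, which reads it, passed none of the 5.

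In the median member, the 2 libraries of each type lay further apart than the type means did. Gaps between single libraries are not the same measure as a gap between means. Among single libraries of different types, the median was 0.79 for DSP minus LL, larger in size than for DSP minus TP, and -0.19 for TP minus YY. DSP lay below TP for 54 of 67 members (38.7% of all genes) and LL lay below YY for 64 (49.0%). At least a 2-fold lower value, on the log2(FPKM + 1) scale, was found in DSP relative to TP for 21 members (7.59% of all genes) and in LL relative to YY for 55 (16.4%). A value at least 2-fold higher was found for 2 members in DSP relative to TP (15.6%), NDUFS4 and NDUFB1, and for 0 in LL relative to YY (13.1%). The median difference was -0.59 for DSP minus TP, against 0.21 for all genes, and -1.78 for LL minus YY, against 0.01.

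Across the types, DSP lay above LL for 64 members (61.4% of all genes), 14 of them by at least 2-fold (4.8%) and 0 lower by that much (2.49%), with a median of 0.79 against 0.13 for all genes. On the deposited scale the smallest median difference was that of TP and YY. TP lay below YY for 55 members (61.9%), with a median of -0.19 against -0.20 for all genes. On log2(FPKM + 1), only SDHAF1 was at least 2-fold lower in TP (8.97%) and 0 members were higher by that much (7.78%). With a pseudocount of 0.1, 2 members were lower by that much. The sign for TP minus YY turned with the scaling: the median was 0.36, against 0.25 for all genes, when libraries were scaled to nuclear loci of at least 300 bp. The other 3 medians kept their sign on that scale, at -1.03 for DSP minus TP, -1.20 for LL minus YY and 0.29 for DSP minus LL, with all genes at -0.19, 0.49 and -0.29. On it, 36 members were at least 2-fold lower and 0 higher in DSP relative to TP, and 43 were lower and 1 higher in LL relative to YY. For DSP relative to LL and for TP relative to YY, 0 members then passed 2-fold in either direction. The share of all genes passing 2-fold on that scale is not given here, so these counts are not set apart from it.

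Members that were low in DSP relative to TP tended to be low in LL relative to YY. Over the 67 members, DSP minus TP and LL minus YY, which share no library, had a Pearson r of 0.86 and a Spearman rho of 0.83, against 0.46 and 0.42 over all 11652 genes. This is a description, since all values of a library share its depth and composition. At one end lay ATP5E, the epsilon subunit of the ATP synthase stalk, at -2.08 for DSP minus TP and -2.92 for LL minus YY. At the other end lay NDUFS4, at 1.48 and 0.95. Both DSP and LL lay below both TP and YY for 54 of 67 members, against 21.6% of all genes, and for 55 members, against 21.4%, on the scale of nuclear loci of at least 300 bp. Levels of the 67 members were closest between DSP and LL (r = 0.99 on the log2 scale) and between TP and YY (r = 0.99), pairs that cross the types, and less close between DSP and TP (0.93) and between LL and YY (0.92). The log10 length of the locus had an r of 0.07 with DSP minus TP, 0.25 with LL minus YY, -0.04 with DSP minus LL and 0.38 with TP minus YY.

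**Figure D3:**
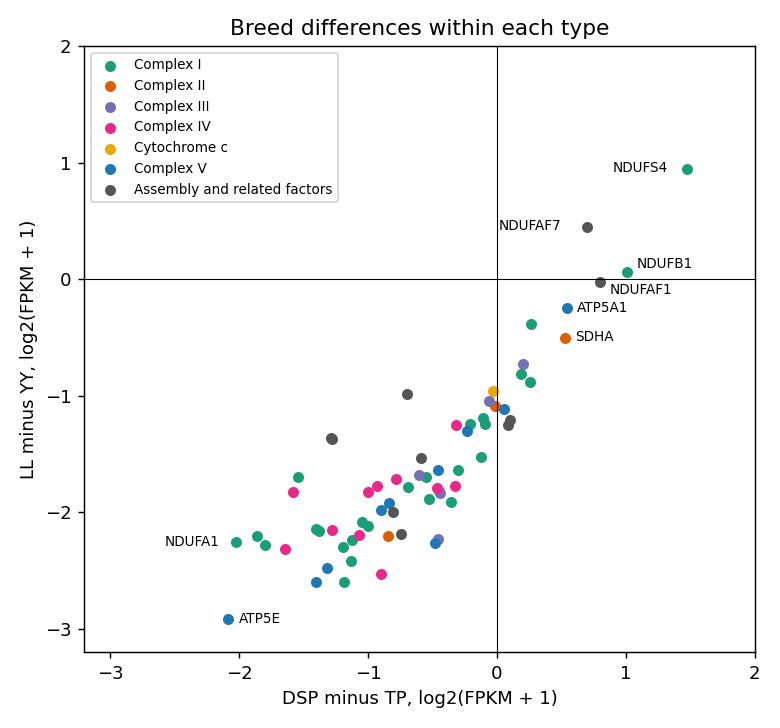
Difference DSP minus TP (horizontal) against LL minus YY (vertical) for each of the 67 members on log2(FPKM + 1), coloured by complex. The points run from ATP5E at the lower left (-2.08, -2.92) to NDUFS4 at the upper right (1.48, 0.95).

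Complex I, the NADH dehydrogenase, had 27 members. Its median subunit had 88.4 FPKM in DSP and 151 in TP, against 48.7 in LL and 177 in YY. The 6 core subunits, which carry the cofactors and the ubiquinone site, had medians of 102, 132, 49.5 and 144 FPKM in that order of libraries, and a type difference of 0.48. The 21 accessory subunits had medians of 88.4, 163, 48.7 and 203 FPKM and a type difference of 0.17. LL was lowest for 23 of the 27.

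NDUFV1, the core subunit that binds NADH and flavin, had 61.8 FPKM in DSP and 100.3 in TP, against 30.4 in LL and 107 in YY. NDUFS7, which holds the last iron-sulfur cluster before ubiquinone, had 86.9 FPKM in DSP and 199 in TP, against 32.4 in LL and 201 in YY. DSP was thus well below TP for NDUFV1 and NDUFS7 and above it for NDUFS1, while LL was the lowest for all 3. The type difference of NDUFS7, 0.69 (SE 1.02), was the largest within complex I. It was -0.61 without LL.

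A pair of accessory subunits ran the other way. NDUFS4, an accessory subunit of the NADH-binding arm, had 1220.5 FPKM in DSP and 438 in TP, against 920.2 in LL and 477 in YY. It was higher in DSP than in TP and in LL than in YY, and the types overlapped (difference 0.14, SE 0.98). NDUFB1 had 1184 FPKM in DSP and 587 in TP, against 585 in LL and 561 in YY, so DSP alone stood apart (difference 0.54, SE 0.90). NDUFS4 is listed on chromosome 16 from 34854095 to 34902399, and a second entry on the same chromosome, from 34963054 to 34992624, is paired with that symbol only in the reference table. This second entry had 389.6 FPKM in DSP and 174 in TP, against 246 in LL and 204 in YY, also higher in DSP than in TP and in LL than in YY. The sources used here do not name the genome build of these positions.

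The remaining complex I subunits followed the general order more closely. NDUFB9, a membrane arm subunit, had 208 FPKM in DSP and 551 in TP, against 119 in LL and 530.1 in YY. Its listed locus spans 237373 bp and overlaps other genes, MTSS1 among them, so reads at the shared positions cannot be assigned here. NDUFC1 had 229.9 FPKM in DSP and 246 in TP, against 186 in LL and 443 in YY, a difference of -0.27 (SE 0.83), the lowest of complex I. YY alone was high for NDUFC1, and without YY the difference was 0.35. NDUFA1, a membrane arm subunit, had 31.4 FPKM in DSP and 130.5 in TP, against 32.2 in LL and 158 in YY. NDUFA1 and NDUFV3 were the only complex I subunits with DSP lowest, each by a margin under 1 FPKM to LL.

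Complex II, succinate dehydrogenase, which also serves the citric acid cycle, had 3 members. SDHA, the flavoprotein that oxidises succinate, had 216 FPKM in DSP and 150.0 in TP, against 109.6 in LL and 155 in YY. SDHB, the iron-sulfur subunit bound to it, had 126 FPKM in DSP and 227 in TP, against 63.0 in LL and 294 in YY. SDHC, a membrane anchor, had 108 FPKM in DSP and 109.7 in TP, against 56.0 in LL and 120.3 in YY. LL was lowest for all 3. DSP was highest for SDHA and stood between LL and TP for SDHB, and for SDHC DSP, TP and YY lay close together. The type differences were 0.46 (SE 0.73) for SDHA, 0.31 (SE 0.95) for SDHB and 0.40 (SE 0.72) for SDHC.

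Complex III, the cytochrome bc1 complex, had 5 members, and its median subunit had 195 FPKM in DSP and 257 in TP, against 90.6 in LL and 326 in YY. UQCRFS1, the Rieske iron-sulfur protein, had 85.6 FPKM in DSP and 89.4 in TP, against 45.5 in LL and 95.1 in YY. UQCRH, the hinge protein, had 226 FPKM in DSP and 344 in TP, against 131 in LL and 421 in YY. UQCR10, a small structural subunit, had 195 FPKM in DSP and 268 in TP, against 74.0 in LL and 351 in YY. All 3 followed the order YY, TP, DSP, LL, and DSP, TP and YY were closer together for UQCRFS1 than for UQCRH or UQCR10. CYCS, the cytochrome c that carries electrons on from complex III, had 395 FPKM in DSP and 403 in TP, against 209.9 in LL and 408 in YY. LL alone stood apart for CYCS, whose type difference was 0.45 (SE 0.83).

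Complex IV, cytochrome c oxidase, had the highest median in every library: 263 FPKM in DSP and 510.4 in TP, against 163 in LL and 563 in YY. In all 11 members both DSP and LL lay below both TP and YY, and LL was the lowest for all 11. COX8H, the name in this table for the heart-type subunit 8, had 372 FPKM in DSP and 1164 in TP, against 268 in LL and 1336 in YY. NDUFA4, once counted with complex I and now with complex IV, had 563 FPKM in DSP and 969.9 in TP, against 347 in LL and 1144 in YY. COX7B, a structural subunit, had 263 FPKM in DSP and 554 in TP, against 163 in LL and 750.3 in YY. All showed a low pair, DSP and LL, and a high pair, TP and YY. The COX8H locus spans 111292 bp and overlaps 7 other entries, SIRT3 among them.

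The heart and skeletal muscle isoforms of complex IV followed the same order. COX7A1, the muscle form of subunit 7A, had 391 FPKM in DSP and 951 in TP, against 239.6 in LL and 1071 in YY, and COX7A2, the form found in most tissues, had 63.9 in DSP and 80.0 in TP, against 35.0 in LL and 84.7 in YY. COX6A2, the muscle form of subunit 6A, had 44.0 FPKM in DSP and 82.9 in TP, against 24.1 in LL and 144 in YY. COX4I1, the form of the largest nuclear subunit found in most tissues, had 167 FPKM in DSP and 209 in TP, against 69.2 in LL and 239.6 in YY. Every one was lowest in LL and highest in YY. The type differences were 0.27 (SE 1.08) for COX7A1, 0.38 for COX7A2, 0.03 (SE 0.95) for COX6A2 and 0.53 (SE 0.86) for COX4I1. That of COX6A2 was -0.00202 with libraries at a common median ratio.

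Complex V had 10 members, 4 of the catalytic F1 head and its central stalk and 6 of the membrane part and side stalk. ATP5B, the catalytic beta subunit, had 864 FPKM in DSP and 829 in TP, against 518 in LL and 1123 in YY. ATP5A1, the alpha subunit that alternates with it, had 859.8 FPKM in DSP and 589.8 in TP, against 497 in LL and 591 in YY. Both proteins take equal part in the head. The highest library was YY for ATP5B and DSP for ATP5A1. ATP5E had 123 FPKM in DSP and 524 in TP, against 92.6 in LL and 706 in YY, the widest spread of complex V, with DSP and LL low and TP and YY high.

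In the membrane part and side stalk, ATP5O, which joins the side stalk to the head, had 328 FPKM in DSP and 449 in TP, against 177 in LL and 552 in YY. ATP5G3, one of the genes for the ring-forming c subunit, had 183 FPKM in DSP and 216 in TP, against 77.2 in LL and 192 in YY, and its type difference of 0.70 (SE 0.79) was the largest of the 67. LL was lowest for all 10 members of complex V. ATP5G1 and ATP5G3 encode the same mature protein, and the sources used here do not say how reads common to such related sequences, or to processed pseudogenes of any member, were assigned.

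**Figure D4:**
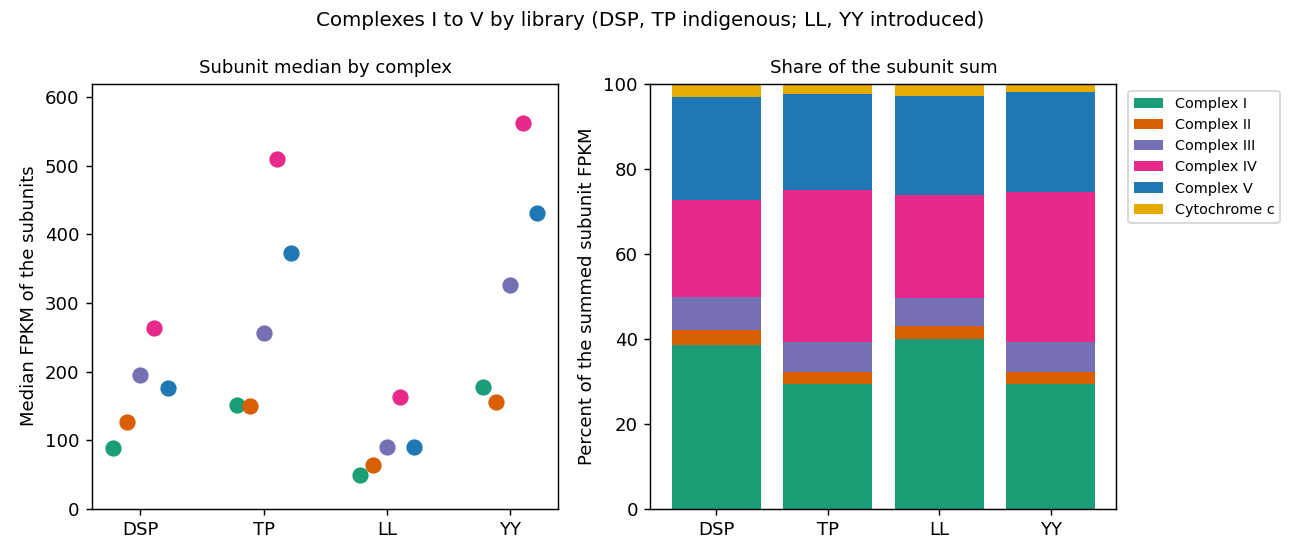
Left, median FPKM of the subunits of each complex in the 4 libraries, where complex IV is highest in each (263 FPKM in DSP, 510.4 in TP, 163 in LL, 563 in YY). Right, share of the summed subunit FPKM, where complex IV takes 22.8% in DSP and 35.6% in TP, against 24.3% in LL and 35.2% in YY.

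The share of each complex in the summed subunit FPKM does not depend on how libraries are scaled. Complex IV took 22.8% in DSP and 35.6% in TP, against 24.3% in LL and 35.2% in YY. Complex I took 38.4% in DSP and 29.4% in TP, against 39.9% in LL and 29.3% in YY. Both shares paired DSP with LL and TP with YY, across the types, and both overlapped between types. Complex V differed less, at 24.2% in DSP and 22.7% in TP, against 23.2% in LL and 23.5% in YY, and complex III held 7.86%, 7.10%, 6.55% and 7.16%, while complex II held 3.58%, 2.85%, 3.12% and 2.86% in the same order.

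A pair of entries carried the complex I share. Without NDUFS4 and NDUFB1, left out after their values were seen, complex I took 23.9% in DSP and 24.9% in TP, against 24.4% in LL and 25.4% in YY, so the gap closed. Complex IV then took 28.2% in DSP and 37.9% in TP, against 30.6% in LL and 37.1% in YY, and its gap remained. Complex V took 29.9% in DSP and 24.2% in TP, against 29.2% in LL and 24.8% in YY on that base, and complex III 9.71%, 7.55%, 8.25% and 7.55%, each now higher in DSP and LL.

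Ratios between partners of one complex showed the same pairing of libraries. SDHA over SDHB was 1.72 in DSP and 0.661 in TP, against 1.74 in LL and 0.529 in YY. NDUFS1 over NDUFV1 was 1.91 in DSP and 0.977 in TP, against 2.07 in LL and 0.770 in YY, and UQCRC1 over UQCR10 was 1.51 in DSP and 0.955 in TP, against 1.89 in LL and 0.663 in YY. ATP5A1 over ATP5B was 0.995 in DSP and 0.711 in TP, against 0.959 in LL and 0.527 in YY. In these 4 ratios, chosen after their values were seen, DSP and LL lay above TP and YY and the types overlapped.

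Isoform ratios leaned the other way. COX7A1 over COX7A2, muscle form over common form, was 6.11 in DSP and 11.9 in TP, against 6.84 in LL and 12.6 in YY. ATP5G1 over ATP5G3 was 1.30 in DSP and 2.06 in TP, against 1.54 in LL and 2.47 in YY. Both were lower in DSP and LL than in TP and YY. The listed COX7A2 locus spans 163379 bp and overlaps 1 other entry. COX8H over COX8A, the common form of subunit 8, was 21.7 in DSP and 34.7 in TP, against 30.9 in LL and 25.8 in YY and followed no such pairing.

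**Figure D5:**
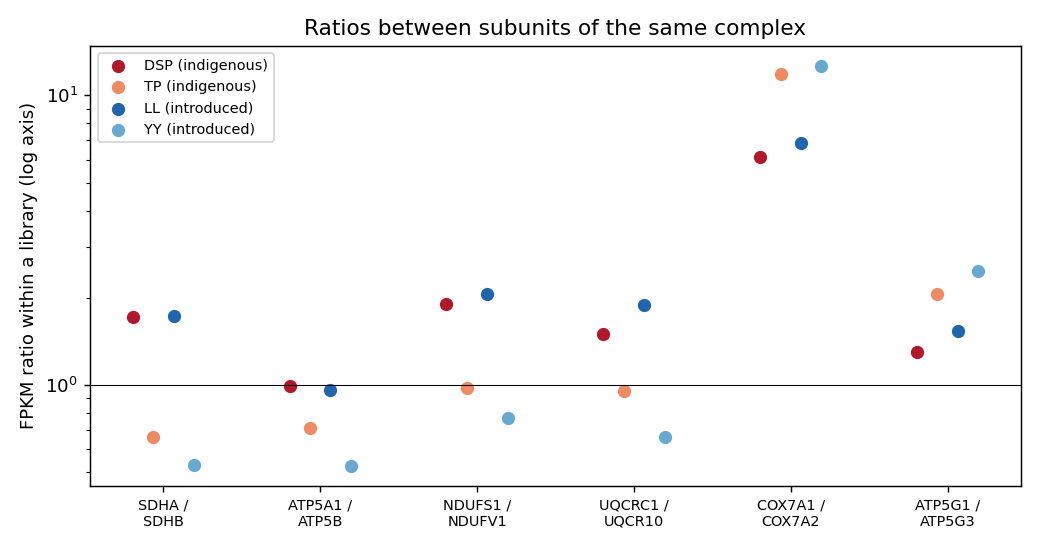
Ratios of FPKM between subunits of one complex within each library (log axis), DSP and TP indigenous, LL and YY introduced. SDHA over SDHB is higher in DSP (1.72) and LL (1.74) than in TP (0.661) and YY (0.529), and COX7A1 over COX7A2 is lower in DSP (6.11) and LL (6.84) than in TP (11.9) and YY (12.6).

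The 10 factors were expressed far below the subunits, with medians of 7.28 FPKM in DSP and 8.83 in TP, against 5.46 in LL and 18.1 in YY. SDHAF1, which helps build the iron-sulfur subunit of complex II, had 5.24 FPKM in DSP and 9.46 in TP, against 5.01 in LL and 26.3 in YY, a type difference of -0.67 (SE 0.78) that was 0.43 without YY. NDUFAF7, a methyltransferase needed to assemble complex I, had 9.33 FPKM in DSP and 5.37 in TP, against 5.92 in LL and 4.07 in YY, a difference of 0.45 (SE 0.49). COX7A2L, a factor that joins complexes III and IV into supercomplexes, had 9.52 FPKM in DSP and 24.5 in TP, against 11.2 in LL and 30.4 in YY. YY stood alone for SDHAF1, DSP was highest for NDUFAF7, and COX7A2L had DSP and LL low. The NDUFAF7 locus overlaps CEBPZ and PRKD3.

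Subunits whose names come only from the reference table, and which the name rule therefore left out, gave a separate set of 11 entries, 10 of them tested. They had a median type difference of 0.24, with LL lowest in 9 of the 10 tested, and 0 passed limma. SDHD, the second membrane anchor of complex II, had 336 FPKM in DSP and 273 in TP, against 183 in LL and 322 in YY. UQCR11, a small subunit of complex III, had 153 FPKM in DSP and 418 in TP, against 104 in LL and 536 in YY. SDHD resembled SDHA in having DSP highest, and UQCR11 had DSP and LL low.

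Of 13 listed mitochondrially encoded partners of these subunits 12 were found. Their median type difference was 0.53, all 12 lay above 0 and 0 passed limma. LL was lowest for 11 of the 12, but TP, not YY, was highest for 11. MT-CO1, the catalytic subunit of complex IV, had 18626 FPKM in DSP and 31534 in TP, against 11421 in LL and 27575 in YY. MT-ATP8, a small subunit of complex V, ran the other way, with 194058 FPKM in DSP and 56242 in TP, against 124337 in LL and 38219 in YY, and it held most of the summed FPKM of the 12 genes in DSP and LL. The nuclear subunit sum was 4.28% of the sum of the 12 in DSP and 7.88% in TP, against 4.01% in LL and 11.5% in YY, lower in DSP and LL than in TP and YY. Without MT-ATP8 it was 12.6% of the sum of the other 11 in DSP and 10.6% in TP, against 12.5% in LL and 14.8% in YY.

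Assembly factors outside the name rule were covered by a list of 36, of which 25 were found. Their median type difference was 0.03, 14 of 25 lay above 0, and limma passed 0 in either direction. LL was lowest for 14 and YY highest for 12. COX17, the copper chaperone of complex IV, had 164 FPKM in DSP and 399 in TP, against 133 in LL and 470.1 in YY, and ATPIF1, the inhibitor of complex V, had 112 in DSP and 222 in TP, against 73.2 in LL and 289 in YY. Both had DSP and LL low, like most subunits. COA5, another of the 25, had 147 FPKM in DSP and 68.2 in TP, against 326 in LL and 180 in YY. Its highest value was in LL and its lowest in TP. Over the 25, the median of DSP minus TP was -0.15, with 11 above 0. That of LL minus YY was -0.71, with 5 above 0.

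Of 21 listed regulators of mitochondrial formation 15 were found, with a median type difference of -0.17, 2 of 15 above 0, and 0 passing limma in either direction. TFAM, which packages and transcribes mitochondrial DNA, had 1344 FPKM in DSP and 43.3 in TP, against 1811 in LL and 55.04 in YY. GABPA, a transcription factor of nuclear respiratory genes, had 102 FPKM in DSP and 11.8 in TP, against 92.0 in LL and 25.5 in YY. ESRRA, a nuclear receptor of the same programme, had 35.1 FPKM in DSP and 31.9 in TP, against 21.3 in LL and 53.3 in YY. TFAM and GABPA were high in DSP and LL, where most subunits were low, while ESRRA was lowest in LL and highest in YY, as were most subunits. TFAM had 4.92 for DSP minus TP and 5.01 for LL minus YY. The medians of the 15 regulators were far smaller, at 0.281 and 0.285, against 0.21 and 0.01 for all genes. Overlap of the regulators' loci with other entries was not looked at. A link between regulators and subunits was not tested.

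Fibre type and other cell types were read from marker lists beside these values, and their part in the results was not tested. Limma passed 0 genes of these lists. Of 8 listed slow fibre markers 7 were found, with a median type difference of -0.42, summing to 4963 FPKM in DSP and 7066 in TP, against 6801 in LL and 11028 in YY. MYH7, the slow myosin, had 1115 FPKM in DSP and 810.0 in TP, against 1807 in LL and 1391 in YY. Of the 7, 4 were highest in YY, 2 in LL, MYH7 among them, and 1 in TP, while 4 were lowest in DSP and 1 in each of the other libraries. Of 8 fast fibre markers 3 were found: MYH1, ATP2A1 and TNNC2, the last also counted among the fibre markers above. LL was lowest for all 3, while DSP was highest for 2, MYH1 and ATP2A1, and YY for TNNC2. Their median for DSP minus TP was 0.50, against -0.55 for the subunits. The 4 fibroblast markers summed to 600.4 FPKM in DSP and 718 in TP, against 469 in LL and 113 in YY, and the 4 endothelial markers found of 5 to 61.7 FPKM in DSP and 91.7 in TP, against 69.6 in LL and 31.2 in YY, lowest in YY, where most subunits were highest. The 4 smooth muscle markers summed to 48.4 FPKM in DSP and 194 in TP, against 57.96 in LL and 94.8 in YY, the 3 macrophage markers found of 4 to 5.89, 20.9, 6.18 and 8.41 FPKM, and the 2 adipocyte markers found of 4 to 1.80, 12.0, 1.38 and 1.014 FPKM in the same order. The 3 red blood cell genes summed to 156 FPKM in DSP and 528 in TP, against 171 in LL and 80.9 in YY.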

How the data were processed

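RNA of longissimus dorsi muscle was sequenced in 4 libraries, 1 per breed. The authors deposited FPKM per gene and breed, and their table also gives a pooled ratio (fold) and a p-value with a false discovery rate, per the file headers. The aligner was TopHat, per the submitters' processing notes. The sources used here do not give its version, the build, the annotation, the strand setting or the test behind the deposited p-values. No read counts or depths were used, so no counting interval was computed.

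The type comparison used limma 3.58.1, with a trended prior, in R 4.3.3 on log2(FPKM + 1), which draws small values toward 0, for the 11652 genes whose mean reached 1 FPKM. P-values were adjusted over these genes (Benjamini-Hochberg, threshold 0.05). An exact permutation test of 2 libraries against 2 cannot go below a two-sided p of 0.333 and was not run. Breed pairs were described without a test. Python 3.11.15, numpy 2.4.6, pandas 2.3.3, scipy 1.17.1 and matplotlib 3.10.9 did the rest. The fit was also run on simulated data with a smaller spread than the members had. That run does not show what the fit could detect among the members. Of the members, 9 have a locus that overlaps another entry.

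The members and lists were chosen with earlier results of these data known. Per complex, the genes named were the 3 most abundant and those with the largest and smallest type difference. Catalytic subunits, tissue isoforms, the smallest limma p and the extremes of each breed difference were added. NDUFA1, NDUFV3, ATP5G1, SDHD, UQCR11 and the genes of the other lists, and NDUFAF2 and NDUFAF6 as the lowest members, were named outside that rule. 1 gene the rule takes in is not reported here by name, though it is counted among the members. The alternatives were pseudocounts of 0.1 and 5, no filter or 5 FPKM, 3 other scalings, summed entries of a symbol, each library left out, and limma with an untrended or a robust prior. Shares without NDUFS4 and NDUFB1 were added after the values were seen. Gene symbols missing from the files came from a reference table of assembly Sscrofa11.1, and positions are as deposited.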

Additional observations from a re-analysis of the deposited data

How the results depend on the processing

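The number of members passing limma was 0 under every alternative run. Over all genes, 3 passed with a pseudocount of 0.1, and 0 to 29 with 1 library left out, 29 without YY. With the 50 most abundant genes left out of the sum, TP minus YY had a median of 0.39 over members, 0.37 for complex I, 0.45 for II, 0.29 for III, 0.39 for IV and 0.42 for V. With nuclear loci of at least 300 bp the values were 0.36, 0.34, 0.42, 0.26, 0.36 and 0.39. All 12 turned from below 0, because such a scaling moves every gene of a library alike. The type difference of ATP5E was 0.13 and 0.0173 on these scales, and that of COX6A2 was -0.00415 with a pseudocount of 5 and -0.00202 at a common median ratio. Leaving out 1 library gave type differences of -0.61 to 1.11 for the members' median, -0.61 to 1.03 for complex I, -0.14 to 0.95 for II, -0.56 to 1.09 for III, -0.67 to 1.21 for IV and -0.56 to 1.34 for V, with the lowest always without LL and the highest without YY. Single genes that also changed sign ran as follows. In complex I, NDUFS4 ran from -0.60 to 0.88, NDUFB9 from -0.65 to 1.497, NDUFS7 from -0.61 to 1.99, NDUFV1 from -0.44 to 1.34 and NDUFC1 from -0.90 to 0.35. In complexes II and III, SDHB ran from -0.79 to 1.41, SDHC from -0.14 to 0.95, UQCRH from -0.59 to 1.09, UQCR10 from -0.61 to 1.62, UQCRFS1 from -0.12 to 0.93 and CYCS from -0.0333 to 0.92. In complex IV, COX6A2 ran from -1.24 to 1.29, COX7A1 from -0.81 to 1.34, COX7B from -0.97 to 1.22, COX8H from -1.02 to 1.29, NDUFA4 from -0.63 to 1.09, COX4I1 from -0.36 to 1.42 and COX7A2 from -0.24 to 1.009. In complex V and the factors, ATP5E ran from -1.47 to 1.45, ATP5B from -0.41 to 0.71, ATP5O from -0.52 to 1.11, COX7A2L from -0.94 to 0.43 and SDHAF1 from -1.76 to 0.43. A type left with 1 library was assumed to vary like the other. No paired analysis was possible because the labels give no replicate numbers that tie a library of one type to one of the other. With 1 library per breed and no depth, breed differences carry no error, and library and breed cannot be told apart. The median of the members stayed below 0 for DSP minus TP (-1.05 to -0.49) and for LL minus YY (-1.87 to -1.20) and above 0 for DSP minus LL (0.29 to 0.86) under each scaling, pseudocount and filter run.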
